A study of Mus musculus with 18 samples.

Results

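Cell proliferation genes were followed in mouse dorsal root ganglia, the clusters of sensory neuron cell bodies whose axons run out in peripheral nerves and, for many neurons, up the dorsal columns of the spinal cord. The set was a list of 10 gene symbols, drawn up with earlier results of these data known, and all 10 were found in a count table of 15730 genes: Mki67, Top2a, Cdk1, Ccnb1, Ccna2, Birc5, Mcm2, Mcm5, Pcna and Ccnd1. All 10 passed the filter on low counts. RNA-seq had been done on sciatic (L4 to L6) ganglia of C57BL/6 mice aged 6 to 8 weeks, collected 24 h after the procedure. Each of 18 samples pooled the ganglia of 2 mice, and each of 6 groups had 3 samples. Sham_Saline had a sham procedure with saline, and SNA_Saline an injury of the sciatic nerve with saline. SNA_NAC had the same nerve injury with 30 mM N-acetyl-cysteine, a thiol antioxidant. Sham_H2O2, spelled with a zero in the sample titles, had the sham procedure with 13 mM hydrogen peroxide. DCA had an injury of the spinal dorsal columns, where the central branches of the axons run, and LAM had laminectomy, the bone removal that exposes the cord. For these 2 groups no agent is named, and the labels name no genetic change in any group.

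The cell cycle runs from G1, when D-type cyclins and their kinases release the E2F transcription factors, through S phase, when DNA is copied, to G2 and mitosis. Pcna, Mcm2 and Mcm5 belong to the replication machinery. Ccna2, Cdk1 and Ccnb1 are the cyclins and the kinase that drive S phase and entry into mitosis, while Top2a, Birc5 and Mki67 act on chromosomes in mitosis. Sensory neurons of the adult ganglion have left the cycle, so that transcripts of this kind are usually read as a sign of dividing glia, immune or vascular cells. In whole ganglia, more cells of a type and more RNA per cell cannot be told apart.

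Many late cell cycle genes share promoter letters: the CCAAT box, bound by NF-Y, and the cell cycle homology region, read here as TTTGAA or TTTAAA. RefSeq promoters on GRCm38.p6 were matched for 8 of the 10 genes. The 250 bases before the start site are shown for 4 genes of G2 and mitosis, and for Pcna as a replication gene. Across the 18 samples, Pearson's r of Pcna with these 4 genes ran from -0.27 to 0.12. Without the 2 samples farthest from the median of the other gene, it ran from -0.16 (Cdk1) to 0.47 (Top2a). Capitals mark matches of the motifs on either strand, so that ATTGG is CCAAT and TTCAAA is TTTGAA read on the other strand.
Mki67 (chr7:135716380-135716629, minus strand): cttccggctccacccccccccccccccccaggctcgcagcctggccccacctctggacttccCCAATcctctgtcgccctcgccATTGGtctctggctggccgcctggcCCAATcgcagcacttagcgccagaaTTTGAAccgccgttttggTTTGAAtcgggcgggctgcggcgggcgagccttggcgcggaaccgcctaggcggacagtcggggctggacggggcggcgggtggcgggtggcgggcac
Top2a (chr11:99024190-99024439, minus strand): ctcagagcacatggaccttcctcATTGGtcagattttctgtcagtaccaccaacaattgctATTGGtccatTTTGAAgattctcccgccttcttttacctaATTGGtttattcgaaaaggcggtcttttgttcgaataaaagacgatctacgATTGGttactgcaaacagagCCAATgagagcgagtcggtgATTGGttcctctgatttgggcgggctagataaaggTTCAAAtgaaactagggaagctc
Cdk1 (chr10:69352913-69353162, minus strand): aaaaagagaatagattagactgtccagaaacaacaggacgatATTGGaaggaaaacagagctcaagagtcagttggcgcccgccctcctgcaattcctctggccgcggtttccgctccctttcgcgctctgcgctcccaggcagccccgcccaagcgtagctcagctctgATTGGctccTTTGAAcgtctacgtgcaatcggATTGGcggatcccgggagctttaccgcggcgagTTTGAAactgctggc
Ccnb1 (chr13:100786487-100786736, minus strand): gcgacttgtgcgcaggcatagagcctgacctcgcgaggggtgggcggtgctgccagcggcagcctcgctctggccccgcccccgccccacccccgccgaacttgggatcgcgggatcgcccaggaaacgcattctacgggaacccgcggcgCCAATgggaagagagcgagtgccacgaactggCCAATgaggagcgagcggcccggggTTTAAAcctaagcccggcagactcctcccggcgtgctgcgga
Pcna (chr2:132253181-132253430, minus strand): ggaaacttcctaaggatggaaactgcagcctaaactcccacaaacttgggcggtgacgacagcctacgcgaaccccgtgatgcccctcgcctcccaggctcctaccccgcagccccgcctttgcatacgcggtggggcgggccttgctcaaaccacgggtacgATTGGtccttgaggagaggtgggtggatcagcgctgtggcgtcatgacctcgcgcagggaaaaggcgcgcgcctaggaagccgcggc

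No matches overlapped in these stretches. Top2a had 6 CCAAT matches and TTTGAA matches at -179 and -23, counted from the start site. Mki67 had CCAAT 3 times and TTTGAA at -116 and -98, and Cdk1 had CCAAT 3 times and TTTGAA at -71 and -15. Ccnb1 had CCAAT at -99 and -67 and TTTAAA at -42, whereas Pcna had a single CCAAT at -87 and neither form of the homology region. Pcna does not stand for the other replication members, whose promoters are not printed. Mcm2 had CCAAT at -175 and TTTGAA at -70, and Mcm5 had CCAAT at -77, -22 and 7 and TTTAAA at -221. Birc5, a mitotic member also not printed, had TTTAAA at -220 and no CCAAT. In the full window of 300 bases, CCAAT was present in 7 of the 8 promoters and in 37.4% of all 32851 promoters in the table. TTTGAA was present in 4 of 8 against 17.9% of all, and TTTAAA in 3 of 8 against 13.2%. The E2F-type letters TTTCCCGC and TTTGGCGC were present in 0 and 1 of 8, against 1.07% and 0.514% of all. These matches describe the letters alone.

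Library size ranged from 6472476 counts (Sham_H2O2 replicate 3) to 42435331 (SNA_NAC replicate 1). Counts were scaled by library size with TMM factors to CPM, the usual unit of counts relative to the library total, and p-values measure the spread between pools of different mice. The lane label was the same as the replicate number, so each lane held 1 sample of every group. All 9 sensory neuron markers were in the table, with a summed level of 6971 to 12050 CPM. The 10 satellite glial markers summed to 2522 to 3515 CPM, the 8 Schwann cell markers to 6684 to 10790 CPM, 14 of 15 macrophage markers to 161 to 289 CPM, 8 endothelial markers to 114 to 141 CPM, and 7 fibroblast and pericyte markers to 1027 to 1802 CPM. Transcripts on the blood cell lists were present too. Of 13 erythroid markers 8 had a row and summed to 272 to 935 CPM, and 13 neutrophil and myeloid progenitor markers to 235 to 608 CPM. For B cells, 7 of 12 markers summed to 161 to 203 CPM. Erythroid markers without a row were Hbb-b1, Hbb-b2, Ahsp, Epor and Klf1, and B cell markers without one were Vpreb1, Vpreb3, Igll1, Rag2 and Pax5. Whether these transcripts came from blood-forming or circulating cells was not tested. Of the T and NK cell markers 1 of 7 had a row, at 0.159 to 0.927 CPM. The 7 skeletal muscle markers ranged from 125.5 to 1462 CPM, the highest being Sham_Saline replicate 2. Leaving out Sham_Saline replicate 1 changed counts of called genes by the most: 2548 genes were then called between SNA_Saline and Sham_Saline, against 430 with it.

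Per transcript length, Pcna, the sliding clamp that holds DNA polymerase on its template, was the most abundant of the 10, at 20.2 ± 2.02 FPKM (SD, n = 18). Ccnd1 (cyclin D1), which partners Cdk4 and Cdk6 in G1, followed at 9.02 ± 1.35 FPKM, and Ccna2 (cyclin A2) at 7.97 ± 1.58 FPKM. The replicative helicase subunits Mcm2 and Mcm5 stood at 1.29 ± 0.323 and 0.995 ± 0.268 FPKM. Birc5 (survivin), a subunit of the chromosomal passenger complex, stood at 1.23 ± 0.212 FPKM. The remaining mitotic genes were the scarcest: 0.739 ± 0.248 FPKM for Mki67, the proliferation antigen Ki-67 that coats mitotic chromosomes, 0.579 ± 0.168 for Cdk1, the mitotic kinase, 0.414 ± 0.144 for Top2a, which untangles sister chromatids, and 0.245 ± 0.0695 for Ccnb1 (cyclin B1), the partner of Cdk1. Low depth limited the last of these: Ccnb1 had 6 to 41 counts per sample and Cdk1 10 to 86, against 369 to 1959 for Pcna.

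The 6 group means of each gene lay close together. The highest group mean was 1.26 times the lowest for Pcna and 1.88 times for Top2a, and the other 8 ratios lay between these values. For Mki67, Top2a, Cdk1 and Ccnb1 the order of means began with Sham_Saline and then SNA_Saline. For Mki67 it continued with LAM, DCA, SNA_NAC and Sham_H2O2, and for Top2a with LAM, SNA_NAC, DCA and Sham_H2O2. Of the 50 pairs of groups that were neighbours in these orders, sample ranges did not overlap in 1: Ccnd1 in SNA_Saline over LAM. In edgeR's quasi-likelihood F-test of any difference among the 6 groups, 0 of the 10 genes had an adjusted p under 0.05, against 3.94% of all genes. The smallest was that of Ccnd1, at an adjusted p of 0.0957 in the same edgeR test. Ccnd1 passed in DESeq2's likelihood ratio test (adjusted p = 0.0166), which called 1384 of all 15729 genes. In edgeR it also passed with GC and length offsets (adjusted p = 0.0477) and without DCA replicate 3 (adjusted p = 0.0109).

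**Figure D1:**
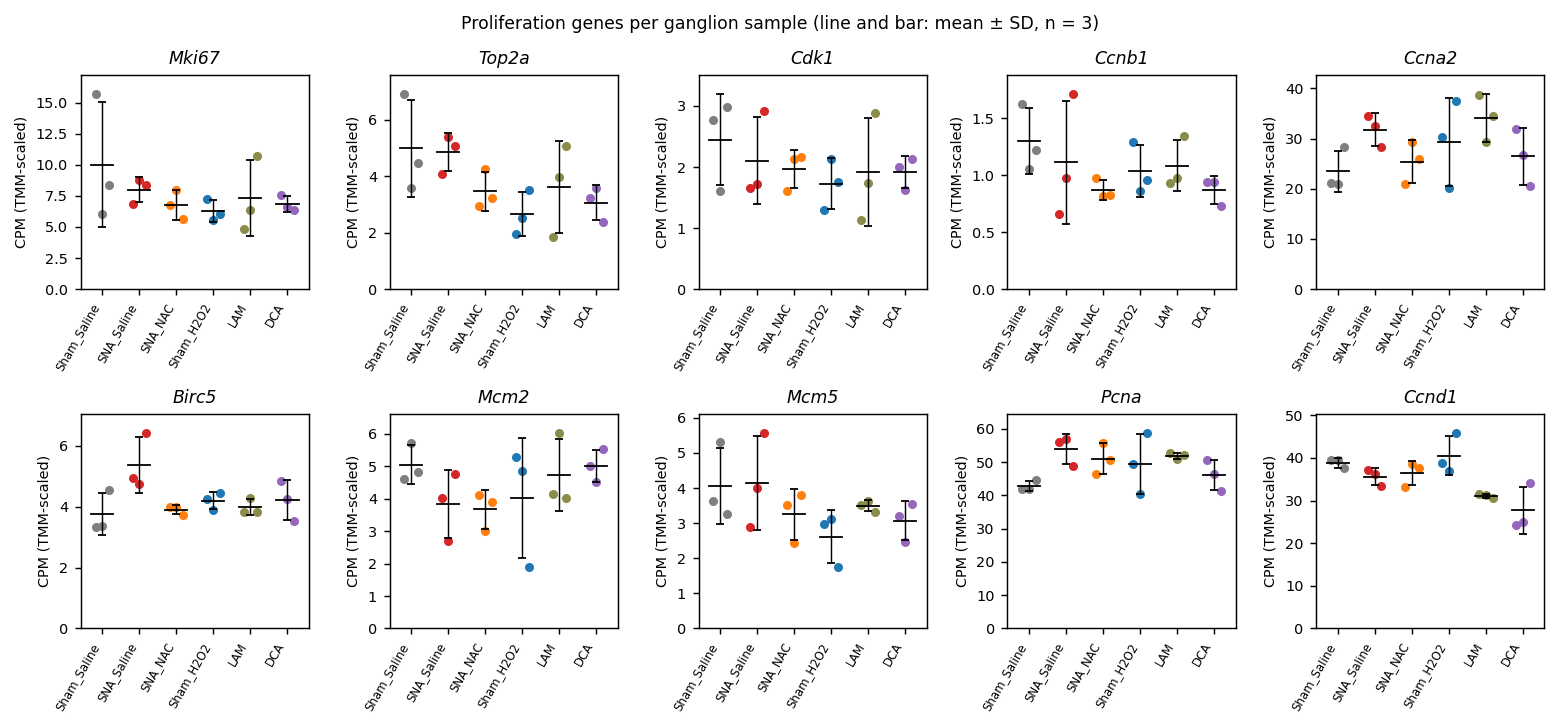
Level of each of the 10 genes (vertical axis, TMM-scaled CPM, from 0) in each sample of the 6 groups (horizontal axis); points are samples, and the line and bar give the mean ± SD of 3 samples. Sample ranges overlap for nearly all neighbouring groups, and the highest Mki67 value, 15.7 CPM, is 1 Sham_Saline sample.

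No member was called in any of 7 comparisons by edgeR's quasi-likelihood test at an adjusted p under 0.05 over all 15730 genes. DESeq2 and limma on FPKM also called 0 of 10 in all 7. The intervals bound how large a change could have been missed. For all 10 genes the 95% interval of the fitted fold change between SNA_Saline and Sham_Saline lay within 2-fold in either direction. A rise of 2-fold or more was outside the interval for all 10 genes in the comparisons DCA with LAM, SNA_NAC with SNA_Saline and Sham_H2O2 with Sham_Saline as well. A fall of 2-fold or more was outside it for 9, 8 and 5 of 10, respectively.

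**Figure D2:**
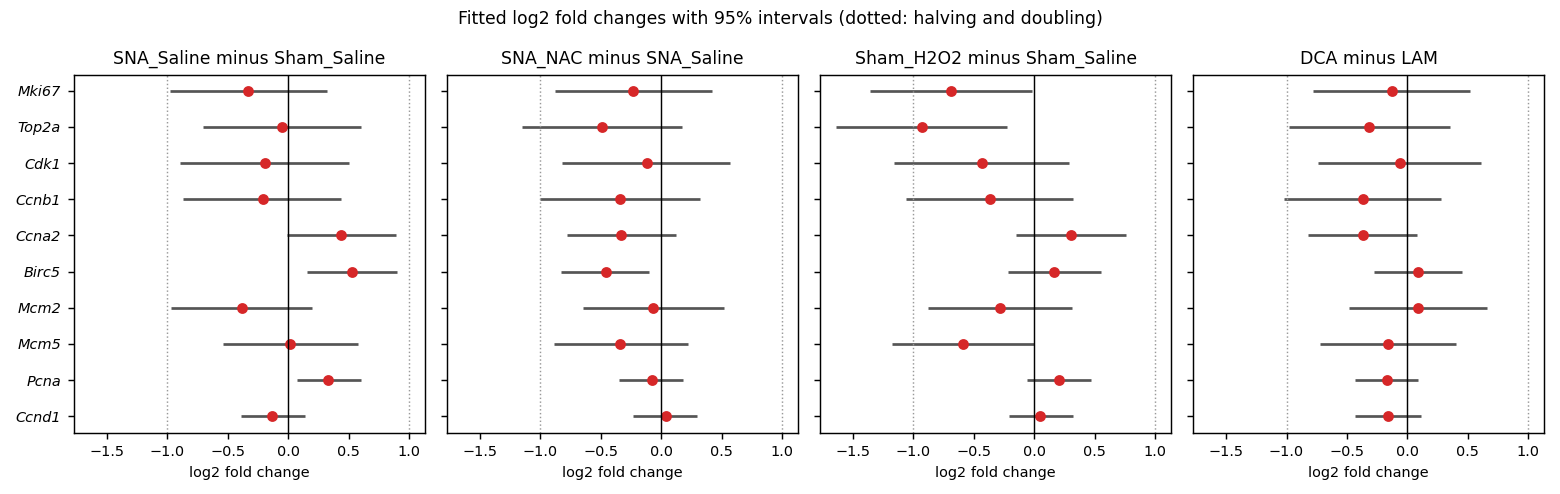
Fitted log2 fold changes of the 10 genes (horizontal axis; points) with 95% intervals (bars) in 4 comparisons, with dotted lines at a 2-fold fall and a 2-fold rise. After sciatic nerve injury the points run from -0.38 (Mcm2) to 0.53 (Birc5) and no bar reaches a dotted line, while under hydrogen peroxide the bar of Top2a reaches -1.64.

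The comparison of SNA_Saline with Sham_Saline asks which genes respond in the ganglion to an injury of the sciatic nerve. Birc5 (ENSMUSG00000017716, chr11:117849251-117855743, plus strand) was at 3.34, 3.37 and 4.55 CPM in Sham_Saline and at 4.95, 4.76 and 6.42 CPM in SNA_Saline. All 3 nerve-injured samples were above all 3 sham samples. The fitted difference was 0.53 on the log2 scale (95% interval 0.16 to 0.9), with a p of 0.00751 that did not pass adjustment in edgeR (adjusted p = 0.116). Within lanes 1, 2 and 3 the Birc5 difference was 0.55, 0.48 and 0.49. Without SNA_Saline replicate 3, its highest sample, it was 0.38.

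Pcna (ENSMUSG00000027342, chr2:132249162-132253314, minus strand) was at 41.9, 41.9 and 44.5 CPM in Sham_Saline and at 56.2, 57.1 and 48.8 CPM in SNA_Saline. These ranges did not overlap either. The log2 difference was 0.33 (0.07 to 0.6), with an edgeR adjusted p of 0.155. With offsets for GC content and transcript length, an alternative added after the data were seen, it was 0.16. Ccna2 (ENSMUSG00000027715, chr3:36564865-36572150, minus strand) was at 21.2, 21 and 28.2 CPM in Sham_Saline against 34.6, 32.5 and 28.2 in SNA_Saline. The lowest nerve-injured sample met the highest sham sample, and the log2 difference was 0.44 (-0.01 to 0.89; edgeR adjusted p = 0.232). Ccnd1 (ENSMUSG00000070348, chr7:144929931-144939925, minus strand) stood at 39.5, 39.6 and 37.5 CPM in Sham_Saline and 37.1, 36.3 and 33.4 CPM in SNA_Saline. Every nerve-injured sample was below every sham sample, but the log2 difference was -0.13 (-0.39 to 0.14; edgeR adjusted p = 0.532).

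Of the 5 members Mki67, Top2a, Cdk1, Ccnb1 and Birc5, only Birc5 was higher in every nerve-injured sample than in every sham sample. Mki67 (ENSMUSG00000031004, chr7:135689784-135716361, minus strand) was at 15.7, 6.02 and 8.35 CPM in Sham_Saline and 6.86, 8.76 and 8.34 CPM in SNA_Saline. The first sham sample stood far above the others, and the remaining samples of both groups were intermingled. The log2 difference was -0.33 (-0.98 to 0.32; edgeR adjusted p = 0.503), and 0.16 without Sham_Saline replicate 1. Within lanes 1, 2 and 3 the Mki67 difference was -1.18, 0.53 and 0. Top2a (ENSMUSG00000020914, chr11:98992943-99024189, minus strand) was at 6.91, 3.58 and 4.48 CPM in Sham_Saline and 4.09, 5.4 and 5.06 in SNA_Saline, with overlapping ranges. Its log2 difference was -0.05 (-0.7 to 0.6), and 0.27 without Sham_Saline replicate 1. On the log2 scale Cdk1 (ENSMUSG00000019942, chr10:69335146-69352938, minus strand) differed by -0.19 (-0.89 to 0.5) and Ccnb1 (ENSMUSG00000041431, chr13:100778650-100786570, minus strand) by -0.21 (-0.87 to 0.44). The helicase genes gave no common direction: the log2 difference was -0.38 (-0.97 to 0.2) for Mcm2 (ENSMUSG00000002870, chr6:88883474-88898780, minus strand) and 0.02 (-0.54 to 0.58) for Mcm5 (ENSMUSG00000005410, chr8:75109569-75128439, plus strand).

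Over the 10 genes the median log2 difference between SNA_Saline and Sham_Saline was -0.09, against -0.03 over all genes, with 4 values above 0 and 6 below. Of all genes tested, 2.73% were called in this comparison, so that 0 of 10 is close to the background. Unadjusted p-values were under 0.05 for 2 of 10 members, Birc5 and Pcna, and for 22.5% of all genes. Ranges did not overlap for 3 of 10 members and for 19.1% of all genes; 2 members were higher (10.3% of all genes) and 1 was lower (8.8%). Fitted differences were also below 0 for all 9 sensory neuron markers, of which 1 fell (edgeR), and for all 7 skeletal muscle markers. The muscle sum was 238, 134 and 413 CPM in SNA_Saline and 188, 1462 and 138 CPM in Sham_Saline, so only replicate 2 was high. The neuron sum was 7891, 7944 and 8539 CPM in SNA_Saline and 8136, 12050 and 8768 CPM in Sham_Saline. The part of these markers' tissues in the member values was not tested.

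N-acetyl-cysteine was compared with saline after the same nerve injury. Birc5 was at 3.98, 4 and 3.73 CPM in SNA_NAC, below the 4.76 to 6.42 CPM of SNA_Saline and inside the range of Sham_Saline. The log2 difference from SNA_Saline was -0.46 (-0.83 to -0.1) with a p of 0.0156, and the edgeR adjusted p was 1. This comparison shares the SNA_Saline samples with the previous one: SNA_NAC less Sham_Saline was 0.07 (-0.29 to 0.43) for Birc5. Top2a stood at 2.94, 4.25 and 3.23 CPM in SNA_NAC, overlapping the 4.09 to 5.4 CPM of SNA_Saline, with a log2 difference of -0.49 (-1.15 to 0.17). Fitted differences were below 0 for 9 of 10 genes, the exception being Ccnd1 at 0.04, and their median was -0.28 against 0 over all genes. No gene in the whole table was called (0%) by edgeR, and the unadjusted p was under 0.05 for 1 of 10 members and for 2% of all genes. DESeq2 called 0 genes. Ranges did not overlap for 1 of 10 members, which was lower, and for 14.9% of all genes (9.24% higher and 5.63% lower). The myeloid marker sum was 235 to 315 CPM in SNA_NAC against 352 to 579 CPM in SNA_Saline, and the erythroid sum was 304 to 392 against 387 to 826 CPM. No myeloid marker was at 0 in these samples, and of the erythroid markers Hbb-b1, Hbb-b2, Ahsp, Epor and Klf1 had no row in the count table. Their part in the lower member values was not tested.

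Against Sham_Saline directly, SNA_NAC gave fitted differences from -0.56 (Mki67) to 0.25 (Pcna), with a median of -0.32 against -0.01 over all genes. Of all genes 3.32% were called (2.47% higher and 0.846% lower), and 0 of 10 members (edgeR, smallest adjusted p = 0.194). DESeq2 also called none of the members. Unadjusted p-values under 0.05 numbered 0 of 10 and 27.6% of all genes. Ranges did not overlap for Pcna, at 46.4, 55.8 and 50.7 CPM in SNA_NAC and higher there, nor for Mcm2 and Ccnb1, lower there. Such separation was found for 21.2% of all genes (11.5% higher and 9.68% lower). Mcm2 was at 4.12, 3 and 3.9 CPM in SNA_NAC and at 4.62, 5.73 and 4.82 in Sham_Saline. Its log2 difference was -0.45 (-1.01 to 0.11). Of the 13 neutrophil and myeloid progenitor markers, 5 fell in this comparison: Mpo, Elane, Lcn2, Camp and Prtn3.

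Hydrogen peroxide was compared with saline in sham animals. Top2a was at 1.94, 2.54 and 3.5 CPM in Sham_H2O2 and at 6.91, 3.58 and 4.48 CPM in Sham_Saline. All 3 peroxide samples were below all 3 saline samples, by a narrow margin between 3.5 and 3.58 CPM. The log2 difference, -0.93 (-1.64 to -0.23), was the largest in size of any member in the 6 comparisons between groups. Its p of 0.0128 did not pass adjustment in edgeR (adjusted p = 0.449), and without Sham_Saline replicate 1 the difference was -0.62. Within lanes 1, 2 and 3 the Top2a difference was -1.78, -0.48 and -0.35. Mki67 was at 7.24, 5.52 and 6.04 CPM in Sham_H2O2, overlapping the sham samples. Its log2 difference of -0.69 (-1.36 to -0.02; edgeR adjusted p = 0.449) was -0.2 without Sham_Saline replicate 1. Mcm5 was at 2.97, 3.12 and 1.75 CPM in Sham_H2O2, all below the 3.62, 5.31 and 3.26 CPM of Sham_Saline. Its log2 difference was -0.59 (-1.18 to 0; edgeR adjusted p = 0.449), or -0.34 without Sham_Saline replicate 2. The lowest Mcm5 value came from the shallowest library, with 11 counts.

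Across the set, 6 of 10 fitted differences between Sham_H2O2 and Sham_Saline were below 0, with a median of -0.33 against -0.02 over all genes. No gene in the table was called (0%) by edgeR, and 4 genes by DESeq2, none of them members. Unadjusted p-values were under 0.05 for 3 of 10 members and for 9.15% of all genes. Ranges did not overlap for 2 of 10 members, both lower, against 5.43% of all genes in either direction and 3.27% lower. Markers on the erythroid and myeloid lists moved alongside. Fitted differences were below 0 for all 8 erythroid markers in the table, whose sum was 325 to 385 CPM in Sham_H2O2 and 367 to 935 CPM in Sham_Saline. They were below 0 for all 13 neutrophil and myeloid markers, with sums of 246 to 544 and 363 to 608 CPM. In Sham_H2O2 replicate 3, 1 of the 13 myeloid markers was at 0. Sham_Saline replicate 1, the sample highest in Top2a and Mki67, was the lowest of its group in both sums. The part of erythroid and myeloid cells in the member values was not tested.

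Dorsal column injury was set against laminectomy. Pcna was at 50.6, 46.4 and 41.3 CPM in DCA and at 52.7, 51 and 52 CPM in LAM, and the highest DCA sample was below the lowest LAM sample. Its log2 difference was -0.17 (-0.43 to 0.09; edgeR adjusted p = 0.624). Ccna2 was at 31.9, 26.8 and 20.6 CPM in DCA against 38.7, 29.2 and 34.4 in LAM, with overlapping ranges and a log2 difference of -0.37 (-0.82 to 0.08). Ccnd1 was at 24.3, 24.9 and 34.1 CPM in DCA and 31.5, 31.2 and 30.5 in LAM: 2 of 3 injured samples were below, and the third above, every LAM sample. The fitted difference of Mki67 was -0.13 (-0.78 to 0.52) and turned to 0.27 without LAM replicate 3. In all, 8 of 10 values were below 0, with a median of -0.16 against 0 over all genes. No gene was called (0%) by edgeR and 2 by DESeq2, none of them members. Unadjusted p-values were under 0.05 for 0 of 10 members and 5.04% of all genes, and ranges did not overlap for 1 of 10, which was lower, and for 21.7% of all genes (9.85% lower). Without DCA replicate 3 the Ccnd1 difference was -0.34, against -0.16 (-0.43 to 0.11) with it. The erythroid sum was 451 to 831 CPM in DCA and 272 to 551 CPM in LAM, and its part was not tested.

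The difference between the sciatic response and the dorsal column response was tested as an interaction, (SNA_Saline less Sham_Saline) less (DCA less LAM). For Pcna it was 0.51 (0.14 to 0.88) on the log2 scale, with an edgeR adjusted p of 0.0926. For Ccna2 it was 0.81 (0.17 to 1.44; adjusted p = 0.103). Thus 0 of 10 members were called, against 1.61% of all genes (1.23% higher and 0.388% lower), and the unadjusted p was under 0.05 for these 2 members and for 31.4% of all genes. With Sham_Saline replicate 1 and Sham_H2O2 replicate 3 both left out, a setting added after the data were seen, the Pcna interaction was 0.5 and passed in edgeR (adjusted p = 0.0254). That setting also called 6058 genes, against 254 with all samples. Blocking on the replicate number left 118 genes and 0 members called. With GC and length offsets the Pcna interaction was 0.25.

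The sham procedure and laminectomy were also compared with each other. Between Sham_Saline and LAM, Ccnd1 was higher in all 3 sham samples (37.5 to 39.6 CPM) than in all 3 LAM samples (30.5 to 31.5 CPM). The log2 difference was 0.32 (0.06 to 0.59; edgeR adjusted p = 0.117). Ccna2 was lower in Sham_Saline, by -0.54 (-0.99 to -0.09; adjusted p = 0.12 in edgeR), and so was Pcna, by -0.28 (-0.54 to -0.02; adjusted p = 0.147 in edgeR). Ranges did not overlap for these 3 of 10 genes and for 30.6% of all genes, and unadjusted p-values were under 0.05 for the same 3 and for 30.3% of all genes. Of all genes 0.0699% were called (11 genes; 0.0509% higher and 0.0191% lower), or 6 genes in the blocked fit. No member was called in either fit. All 7 skeletal muscle markers and 7 of 8 erythroid markers had fitted differences above 0, and their part in these values was not tested.

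Levels of Mki67 and Top2a followed each other across the 18 samples, and those of the other mitotic members did so less clearly or not detectably. Over 57 relations computed, Pearson's r of log2 CPM between Mki67 and Top2a was 0.77 and Spearman's rho 0.79 (permutation p = 9e-05 and 0.00017, adjusted 0.00128 and 0.00242). Without Sham_Saline replicate 1 and LAM replicate 3, the samples farthest from the median of Mki67, r was 0.67. Within lanes 1, 2 and 3 it was 0.85, 0.91 and 0.8, and for deviations from the group means it was 0.72. Top2a against Cdk1 gave r = 0.66 and rho = 0.51 (permutation p = 0.00274 and 0.0344, adjusted 0.0223 and 0.218). Mki67 against Ccnb1 gave r = 0.65 and rho = 0.55 (permutation p = 0.00391 and 0.0191, adjusted 0.0248 and 0.136), and Mki67 against Cdk1 gave r = 0.62 and rho = 0.45 (permutation p = 0.00526 and 0.0645, adjusted 0.03 and 0.263). These last 3 relations were weaker without their 2 farthest samples (r = 0.49, 0.4 and 0.48). They did not hold in lane 2 (r = -0.32, -0.16 and 0.03). In lane 1 their r was 0.94, 0.7 and 0.91, and in lane 3 it was 0.74, 0.78 and 0.84. For deviations from the group means it was 0.64, 0.61 and 0.55. With 6 samples to a lane, r within 1 lane is uncertain. Ccnb1 gave r = 0.43 with Top2a and 0.45 with Cdk1 (adjusted permutation p = 0.243 and 0.228). Birc5 gave r from 0.02 (Mki67) to 0.21 (Top2a) with these 4 genes, with adjusted permutation p of 0.804 or more. These values depended on single samples. Without the 2 samples farthest from the median of the other gene, Birc5 gave r = 0.63 with Mki67 and 0.44 with Top2a. With Cdk1 and Ccnb1 it then gave 0.03 and -0.03. Within lanes 1, 2 and 3 its r with Mki67 was -0.47, 0.63 and 0.27.

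Pcna and Ccna2 also followed each other. Between them r was 0.87 and rho 0.87 (permutation p = 1e-05 for both, the smallest that 100000 permutations can give, adjusted 0.000285). Without the 2 farthest samples, Sham_H2O2 replicate 2 and DCA replicate 3, r was 0.81, and within lanes 1, 2 and 3 it was 0.88, 0.96 and 0.87. Birc5 gave r = 0.47 with Ccna2 and 0.44 with Pcna (adjusted permutation p = 0.191 and 0.228). Pcna and Mcm2, both of the replication fork, ran in opposite directions, with r = -0.7 and rho = -0.68 (permutation p = 0.00069 and 0.00277, adjusted 0.00787 and 0.0226). Without Sham_H2O2 replicate 3 and SNA_Saline replicate 2 this r was -0.56, and within lanes it was -0.28, -0.72 and -0.89. Another measure moved with these genes: the slope, over genes, of a sample's log2 CPM less the gene mean on transcript GC content. It ran from -0.22 in Sham_H2O2 replicate 3 to 0.43 in Sham_Saline replicate 2, per SD of GC content. The latter sample also had the highest sensory neuron and skeletal muscle sums, and what sets the slope was not tested. For the slope, r with Pcna was -0.78 (rho -0.82, adjusted permutation p = 0.00095 for r and 0.00114 for rho), with Ccna2 -0.68 (rho -0.68, adjusted permutation p 0.0142 and 0.0214) and with Mcm2 0.68 (rho 0.79, adjusted permutation p 0.0245 and 0.00251). The longest transcripts of Pcna and Ccna2 are 45.3% and 46.1% G or C and that of Mcm2 51.7%. With offsets for GC content and length, r between Pcna and Ccna2 was 0.56 and between Pcna and Mcm2 -0.5, whereas between Mki67 and Top2a it was 0.76.

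Ccna2 also shares sequence with a neighbour. Its 3′ end overlaps Exosc9, a subunit of the RNA exosome encoded on the opposite strand, over chr3:36564865-36565727 (863 bases, 510 of them exonic in both genes; GENCODE M21 on GRCm38). Whether the authors' counting used strand is not given in the sources used here. Exosc9 ran from 51.2 to 89.9 CPM, above Ccna2 in every sample, and r between them was 0.96 and rho 0.96 (permutation p = 1e-05, the smallest possible; adjusted 0.000285), with 0.97, 0.99 and 0.94 within lanes and 0.95 without the 2 farthest samples. With offsets for GC content and length this r was 0.89. The part of the shared bases in it was not tested. As strand use in counting is not known, Ccna2 counts are uncertain as a measure of cyclin A2 RNA. Ccnd1 overlaps Oraov1 (LTO1 in the annotation) over 1771 bases, 1100 of them exonic, and for this pair r was 0.34 and rho 0.41 (permutation p = 0.167 and 0.0918, adjusted 0.433 and 0.349).

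**Figure D3:**
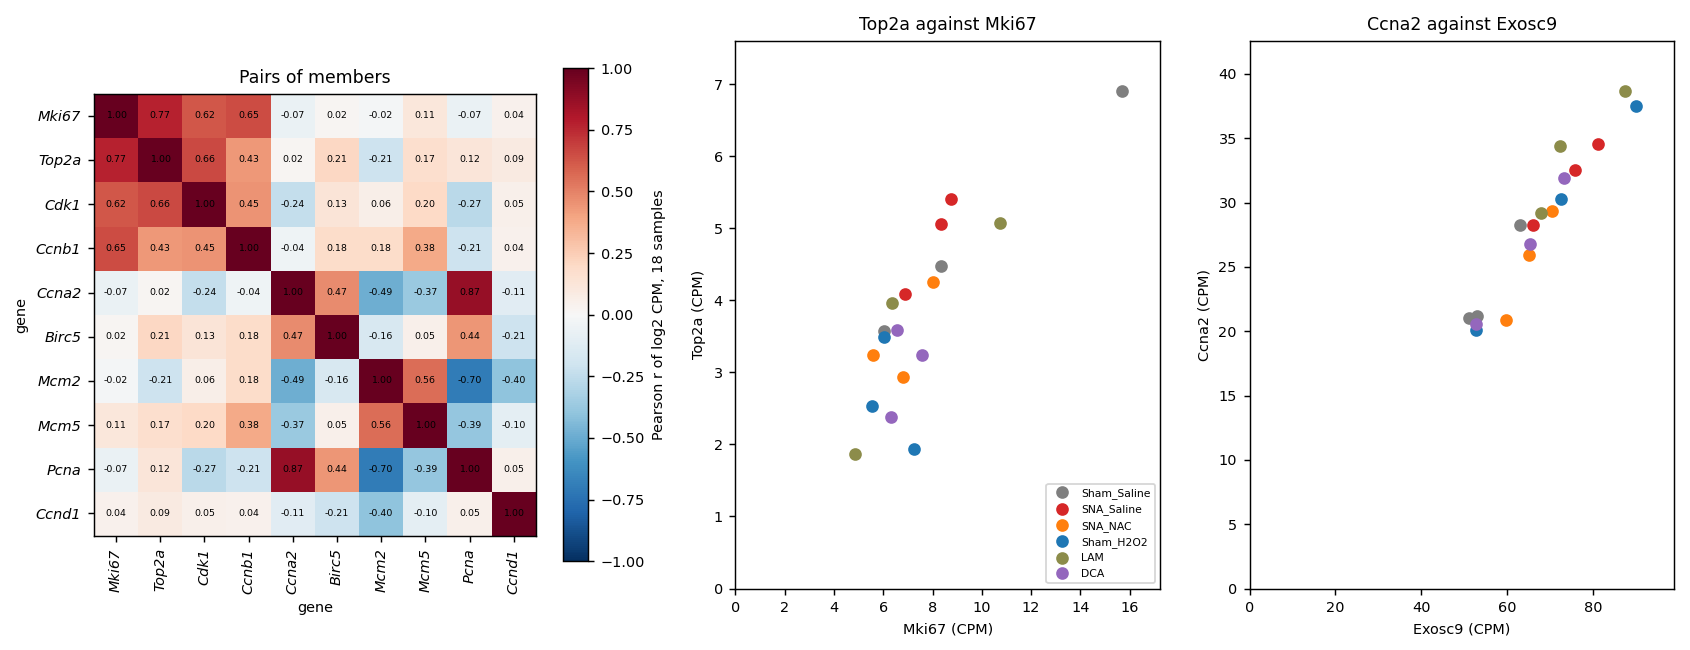
Left, Pearson's r of log2 CPM for each pair of the 10 genes over 18 samples (colour and number); middle and right, CPM of Top2a against Mki67 and of Ccna2 against Exosc9, 1 point per sample, coloured by group. Mki67 and Top2a (r = 0.77) rise together with 1 Sham_Saline sample at the far end, and Ccna2 and Exosc9 lie on nearly a straight line (r = 0.96).

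Among 12990 genes with a mean count of at least 50, those most like Top2a over the 18 samples included Mki67 (r = 0.77), Prg2 (0.7), Ptprj (0.7) and Nusap1 (0.7). Nusap1, a spindle protein, ran from 1.55 to 4.87 CPM. The genes most like Ccnd1 were Padi2 (0.81), Insc (0.79), Col15a1 (0.79), Rasa3 (0.78) and Nid2 (0.75). Both lists are descriptions with no test.

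Wider lists of cell cycle genes held 133 genes in the table, the 10 members among them. After sciatic nerve injury 7 of the 133 rose and 0 fell by edgeR, against 2.16% and 0.572% of all genes. Without Sham_Saline replicate 1, 16.2% of all genes were called in either direction. Of the 133, 8 then rose and 5 fell: Gins2, Pold1, Rpa2, Tk1 and Ccnd3, named after their values were seen. Of 43 replication genes 0 were called by edgeR, with a median log2 difference of 0 against -0.03 over all genes. The unadjusted p was under 0.05 for 10 of the 43 and for 22.5% of all genes. The smallest p-values there belonged to Slbp at 0.49 and Mcm6 at 0.38, with an edgeR adjusted p of 0.0922 and 0.106. DESeq2 called 1 replication gene, Slbp, and 863 of all 15729 genes. Among 55 mitosis genes 2 rose, with a list median of -0.04. Of 24 G1 control genes 2 rose, with a median of 0, and of 11 CDK inhibitors and other brakes 3 rose, with a median of 0.24.

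Prc1, which bundles the microtubules of the mitotic spindle midzone, was at 8.58, 5.52 and 6.11 CPM in Sham_Saline, 12.1, 12.5 and 12.4 CPM in SNA_Saline and 11.9, 12.3 and 12 CPM in SNA_NAC. All 6 nerve-injured samples were above the other 12 samples, whose highest value was the first sham sample. The rise in SNA_Saline was 1.83-fold (95% interval 1.45 to 2.31; edgeR adjusted p = 0.00491) and that in SNA_NAC 1.79-fold over the same Sham_Saline samples (1.43 to 2.25; edgeR adjusted p = 0.00536). The latter call was lost when only the 6 samples of that comparison were fitted (edgeR adjusted p = 0.181). Tpx2, a spindle assembly factor that activates Aurora A, was at 4.96, 4.72 and 5.36 CPM in Sham_Saline and 7.59, 7.35 and 7.48 in SNA_Saline. The groups did not overlap, and the rise was 1.49-fold (1.21 to 1.84; edgeR adjusted p = 0.0357).

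Among growth regulators, Myc was at 8.82, 13.7 and 10.1 CPM in Sham_Saline and 16.3, 17.1 and 17 CPM in SNA_Saline, a rise of 1.54-fold (1.23 to 1.93; edgeR adjusted p = 0.0357). Mycn was at 3.29, 3.87 and 3.26 CPM against 5.28, 5.73 and 5.35, a rise of 1.56-fold (1.23 to 1.98; edgeR adjusted p = 0.0421). Neither gene overlapped between the groups. Cdkn1a, the p21 inhibitor of cyclin-dependent kinases, was at 88.7, 114 and 125 CPM in Sham_Saline and 164, 150 and 193 CPM in SNA_Saline. Its rise was 1.55-fold (1.29 to 1.85; edgeR adjusted p = 0.00831). The anti-proliferative genes Btg1 and Btg2 rose 1.67-fold (1.32 to 2.12; edgeR adjusted p = 0.0183) and 1.52-fold (1.25 to 1.85; edgeR adjusted p = 0.0212). Btg1 was at 42.4, 46.1 and 55.4 CPM in Sham_Saline against 81.6, 86.6 and 72.6 in SNA_Saline, and Btg2 at 9.63, 12 and 11.5 against 16.8, 17 and 16.4. The sham and nerve-injured samples were apart for both.

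All 7 calls were lost when only the 6 samples of the comparison were fitted (edgeR adjusted p from 0.145 for Btg1 to 0.309 for Myc). Leaving out 1 library at a time kept the calls of Prc1 and Cdkn1a. Btg2 lost its call without SNA_Saline replicate 1 or 2 (adjusted p = 0.0981 and 0.0919 in edgeR), and Btg1 without either of these or Sham_Saline replicate 2 (0.086, 0.106 and 0.0733). Tpx2, Myc and Mycn lost theirs without any 1 of the SNA_Saline samples (0.0678 to 0.17 in edgeR). Tpx2 lost its call without Sham_Saline replicate 2 (0.154), Myc without replicate 3 (0.0902) and Mycn without either (0.0613 and 0.0917). In the fit that blocks on replicate number, Tpx2, Myc and Mycn had adjusted p of 0.0576, 0.0529 and 0.0716 in edgeR. Mycn also lost its call in edgeR without TMM factors (0.0504), and Tpx2 in limma on log2(FPKM + 0.1) (0.0514).

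**Figure D4:**
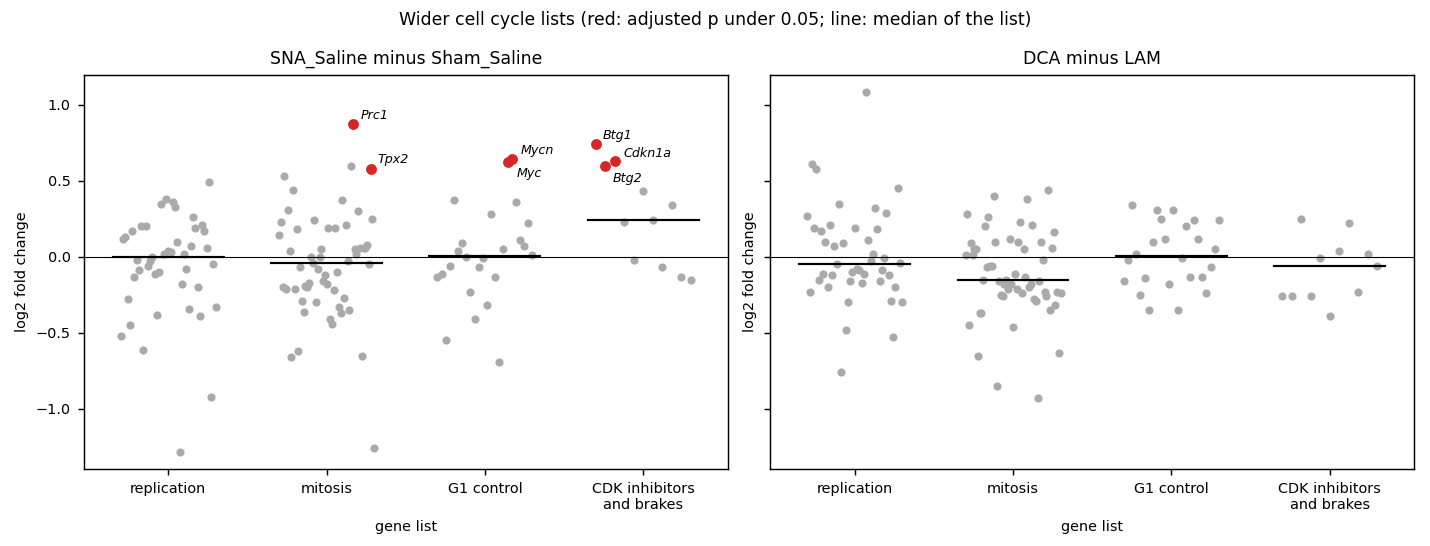
Fitted log2 fold change (vertical axis) of each gene of 4 cell cycle lists (horizontal axis) in SNA_Saline against Sham_Saline (left) and DCA against LAM (right); lines are list medians, and red points with names passed an adjusted p under 0.05. The 7 red points are all above 0 on the left, none is red on the right, and the replication and mitosis medians are 0 and -0.04 on the left.

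**Figure D5:**
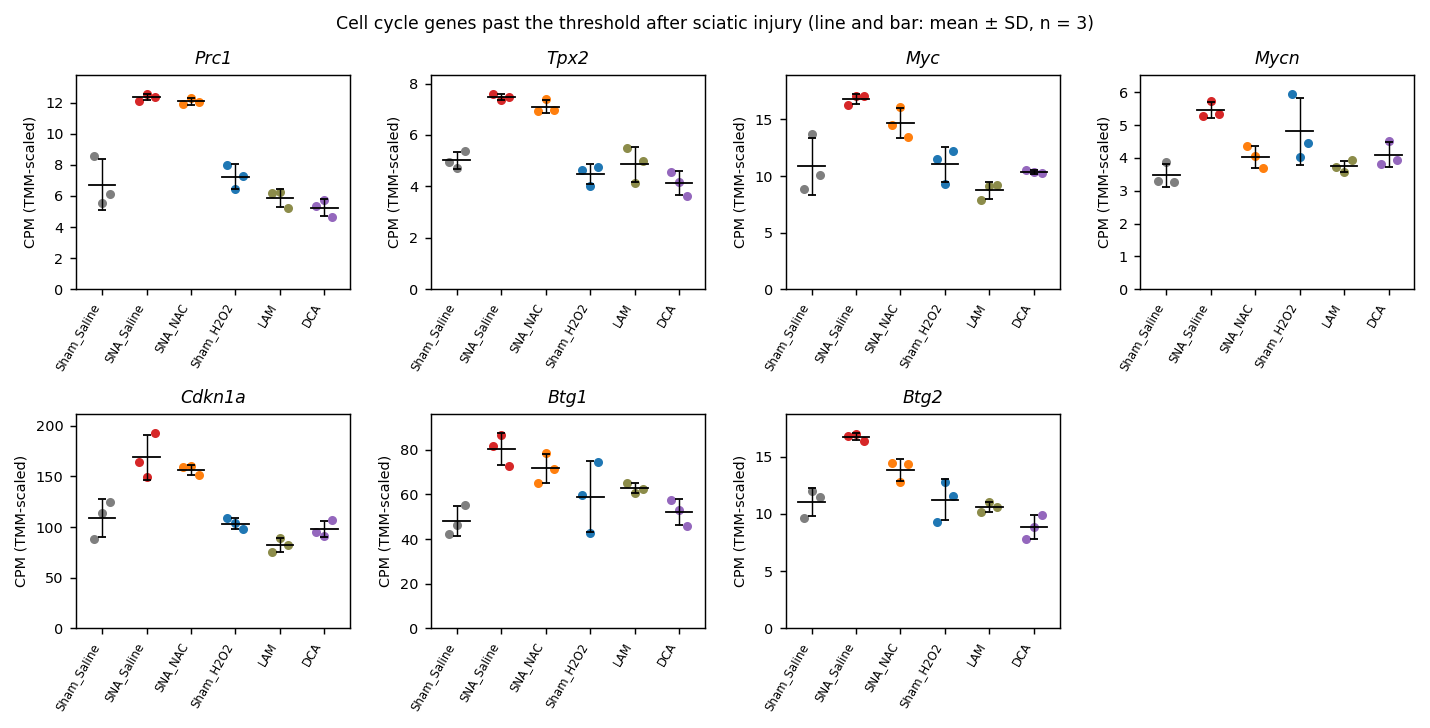
CPM (vertical axis, from 0) of the 7 called genes in each sample of the 6 groups (horizontal axis), with the mean ± SD of 3 samples. SNA_Saline lies above Sham_Saline without overlap in every panel, and SNA_NAC stays near SNA_Saline for Prc1 (11.9 to 12.3 CPM).

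In the other comparisons the lists gave fewer calls by edgeR. None of the 133 listed genes in the table was called between DCA and LAM, between SNA_NAC and SNA_Saline or between Sham_H2O2 and Sham_Saline, where no gene of the whole table was, and DESeq2 called none of the 133 either. Unadjusted p-values were under 0.05 for 5, 6 and 12 of the 133, respectively, and for 5.04%, 2% and 9.15% of all genes. Between SNA_NAC and Sham_Saline, Prc1 and Cdkn1a rose, the latter 1.44-fold (1.2 to 1.72; edgeR adjusted p = 0.026). The Cdkn1a call was lost without Sham_Saline replicate 2 and without any 1 of the SNA_NAC samples (edgeR adjusted p from 0.0688 to 0.111). It was also lost in edgeR without TMM factors (0.0598) or with only the 6 samples of the comparison (0.226), and in limma on log2(FPKM + 1) and log2(FPKM + 0.1) (0.0587 and 0.0617). DESeq2 called 4 of the 133 higher and 6 lower in this comparison, and 1222 of all 15729 genes. Without Sham_Saline replicate 1 edgeR called 11 higher and 17 lower, against 37.3% of all genes called in either direction. Between Sham_Saline and LAM edgeR called 0 of the 133. The unadjusted p was under 0.05 for 22 of them and for 30.3% of all genes. DESeq2 called 5 higher and 1 lower, and 1083 of all 15729 genes. Without Sham_Saline replicate 1 edgeR called 13 higher and 7 lower, against 31.8% of all genes called in either direction. Differences between SNA_NAC and SNA_Saline were -0.03 (-0.36 to 0.29) on the log2 scale for Prc1 and -0.11 (-0.37 to 0.15) for Cdkn1a. For Mycn, at 4.36, 4.07 and 3.69 CPM in SNA_NAC, the difference was -0.43 (-0.76 to -0.09), with an edgeR adjusted p of 1. In the interaction of sciatic and dorsal column injury 3 of the 133 genes were called, Prc1, Btg1 and Btg2, all with a larger sciatic difference. Of all genes 1.61% were called there. DESeq2 called 6 of the 133 higher and 1 lower, and 1638 of all 15729 genes. Without Sham_Saline replicate 1 edgeR called 9 higher and 7 lower, against 29.2% of all genes called in either direction. The values of the 3 genes are given among the results for a closer look.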

How the data were processed

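Poly(A) RNA of 18 ganglion pools was sequenced per the labels' protocols with a TruSeq stranded mRNA kit, single-end on an Illumina HiSeq, with 6 samples to a lane. The authors deposited a table of read counts per gene, of 15730 genes whose lowest mean count was 10.1, and FPKM for 45904 features. The submitters' processing notes name TopHat2 2.0.12, Bowtie2 2.2.3, SAMtools 0.1.19, HTSeq 0.6.0, edgeR 3.8.6, limma 3.22.7, R 3.1.1, FastQC 0.10.1 and build mm10, with no roles. Whether counting used strand is not given in the sources used here. The deposited FPKM served only for levels between genes and for an alternative test, on log2(FPKM + 1) and log2(FPKM + 0.1).

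The members and lists were chosen with earlier results of these data known. The deposited counts were fitted with edgeR 4.0.16 (TMM, quasi-likelihood F-test, all 6 groups sharing 1 spread, Benjamini-Hochberg over all genes, threshold 0.05) in R 4.3.3, with the common biological coefficient of variation at 17.4%. DESeq2 1.42.0 and limma 3.58.1 were alternatives, beside no TMM factors, other filters, fewer groups, a replicate block, single libraries left out and, added after the data were seen, GC and length offsets (15648 genes with both) and 2 libraries left out together. From each wider list up to 4 called genes, or the 2 with the smallest p where none was called, were named in each comparison. On data simulated for SNA_Saline against Sham_Saline with 15730 genes, 100% of 50 genes with a log2 change of 2, 64% with 1 and 18% with 0.58 were recovered, with 3 false calls among 125. No replicate pair matched within sampling noise (smallest chi-square per degree of freedom 3.98), and 0 sample columns were left unused.

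The labels put samples with the same replicate number on the same lane, so the number marks a shared batch. Same-numbered samples deviated together between Sham_Saline and LAM (r across genes 0.24, 0.42 and 0.27), but not between SNA_Saline and Sham_Saline (0.1, -0.65 and -0.17). Between Sham_H2O2 and Sham_Saline r was 0.03, 0.56 and 0.31. The mean r was 0.09 for SNA_NAC with SNA_Saline, 0.07 for DCA with LAM and -0.36 for SNA_NAC with Sham_Saline. The gene lists were replication, mitosis, G1 control, and CDK inhibitors and brakes, and 11 cell type marker lists. Figures were drawn with matplotlib 3.10.9. Of the genes most like a member across samples, 1 is not reported here.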

Additional observations from a re-analysis of the deposited data

Results flagged for a closer look

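The sciatic and dorsal column responses differed, by the test of that difference itself, for 3 genes of the wider lists. For Prc1 the sciatic difference (0.87) less the dorsal column difference (-0.16) was 1.04 on the log2 scale (95% interval 0.56 to 1.52; edgeR adjusted p = 0.033). Prc1 was at 6.21, 6.23 and 5.2 CPM in LAM and 5.35, 5.72 and 4.67 CPM in DCA, with overlapping ranges. For Btg1 the difference was 1.01 (0.52 to 1.49; edgeR adjusted p = 0.0384, or 0.0694 in the blocked fit). Btg1 was at 65.1, 60.7 and 62.4 CPM in LAM and 57.4, 53.2 and 46.1 CPM in DCA, every DCA sample being lower. For Btg2 the difference was 0.86 (0.45 to 1.26; edgeR adjusted p = 0.035), with 10.1, 11 and 10.6 CPM in LAM and 7.84, 8.88 and 9.91 CPM in DCA, again without overlap. None of the 3 dorsal column differences passed adjustment on its own (smallest edgeR adjusted p = 0.624). Over 23 alternatives the interaction kept its sign, and passed the threshold in all but 10 for Prc1, 11 for Btg1 and 13 for Btg2, with a highest adjusted p over these fits of 0.111, 0.126 and 0.102, respectively. Its size over these settings ran from 0.5 to 1.26 for Prc1, 0.64 to 1.12 for Btg1 and 0.66 to 0.95 for Btg2.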

How the results depend on the processing

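No member was called in any comparison of 2 groups under any alternative. Of 1243 member fold changes under alternatives, 70 had the other sign, none of them called, and 2 passed, both the Pcna interaction: 1 member called at an adjusted p under 0.10 (0.0926) and with Sham_Saline 1 and Sham_H2O2 3 both left out (0.0254). In the test of any group difference 1 member, Ccnd1, was called by DESeq2, at a threshold of 0.10, with GC and length offsets and without DCA replicate 3, so that leaving out 1 library gave 0 to 1. A minimum of 10 counts in every sample kept 13445 genes and 9 members, without Ccnb1. Counts of genes called moved more, and the cause was not tested. DESeq2 called 863 (SNA_Saline against Sham_Saline), 1222 (SNA_NAC against Sham_Saline), 1083 (Sham_Saline against LAM), 2 (DCA against LAM), 4 (Sham_H2O2 against Sham_Saline), 1638 (interaction) and 1384 (any group). Fitting only the groups compared gave 65, 68, 1 and 151 for the first 3 of these and the interaction. The threshold of 0.10 gave 822, 1288 and 2398 for the first 2 and the interaction. GC and length offsets gave 1166, 1221, 26, 797 and 1633 (any group). Leaving out both libraries gave 4201, 6790, 6602, 6058 and 4142. For Sham_Saline against LAM the minimum of 10 counts gave 4 and limma on log2(FPKM + 1) gave 5. Leaving out 1 library gave 174 to 2548, 215 to 5861, 4 to 5009, 55 to 4600 (interaction) and 392 to 2152 (any group), the highest always without Sham_Saline replicate 1. With the replicate block the counts were 320 for SNA_Saline against Sham_Saline, 405 for SNA_NAC against Sham_Saline and 6 for Sham_Saline against LAM. They were 118 for the interaction and 482 for any group, against 430, 522, 11, 254 and 619 in the main fit. Among the called genes named above, the block ended the sciatic calls of Tpx2, Myc and Mycn and the Btg1 interaction. Depth limits Ccnb1 and Cdk1 most, with as few as 6 and 10 counts.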

Other observations

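Cdc20, Ccnb2, Ccnd3 and Pold1 had differences in more than 1 comparison that did not pass adjustment in edgeR. Cdc20, the activator of the anaphase-promoting complex, was at 1.24, 1.35 and 1.49 CPM in Sham_Saline and at 0.776, 0.317 and 0.318 CPM in Sham_H2O2, a log2 difference of -1.64 that did not pass in edgeR's quasi-likelihood test over all genes (adjusted p = 0.449) and rests on 6, 7 and 2 counts in the peroxide samples. Ccnb2 (cyclin B2) was at 0.858, 0.865 and 2.14 CPM in SNA_Saline and at 0.711, 0.375 and 0.29 CPM in SNA_NAC (log2 difference -1.4, edgeR adjusted p = 1). Ccnd3 (cyclin D3) was at 16.7, 34.7 and 24.6 CPM in Sham_Saline and at 13.8, 16.3 and 13.7 CPM in Sham_H2O2 (-0.79, edgeR adjusted p = 0.449). Pold1, the catalytic subunit of DNA polymerase delta, was at 1.81, 6.53 and 3.19 CPM in Sham_Saline and at 0.621, 1.03 and 1.18 CPM in LAM. Against Sham_Saline, SNA_NAC gave log2 differences of -0.87 for Cdc20, -1.22 for Ccnb2, -0.84 for Ccnd3 and -1.53 for Pold1 (edgeR adjusted p = 0.0945, 0.0976, 0.0609 and 0.0718). DESeq2 called the last 2 of these lower. The highest Pold1 and Ccnd3 values came from Sham_Saline replicate 2. That sample also had the highest skeletal muscle sum, sensory neuron sum and GC slope (0.43), and the part of any of these was not tested. Dnmt1, the maintenance DNA methyltransferase, differed among the 6 groups (edgeR F-test, adjusted p = 0.0358), with means from 13.2 CPM in LAM to 24.7 CPM in SNA_NAC.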
